A study of Mus musculus with 6 samples.

Results

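Lysophosphatidic acid (LPA) and sphingosine 1-phosphate (S1P) are signalling lipids read by 2 sets of G protein-coupled receptors, and 9 of these receptor genes are described here in cultured mouse NSP cells with and without REST knockdown. The members were Lpar1, Lpar2, Lpar3, Lpar4 and Lpar6, which bind LPA, and S1pr1, S1pr2, S1pr3 and S1pr5, which bind S1P. All 17 probe sets annotated to exactly 1 of these genes were taken, out of 45037 probe sets tested, and the 9 genes stand among 18193 genes on the array. The family was chosen by name, after the difference of Lpar4 in an earlier analysis of the same arrays had drawn attention to it. The values of Lpar4 between the groups are therefore given as a description, without a test.

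RNA was measured on 6 one-colour Affymetrix mouse arrays, 3 from cells infected with a lentivirus carrying a REST shRNA and 3 from cells infected with a lentivirus carrying a control shRNA (CTL in the labels). Both groups came from brains of mouse embryos at E12.5, were grown on coated dishes, and were harvested 6 days after infection. The labels give no strain, hairpin promoter or hairpin sequence. They are also silent on whether the 3 samples per group were separate cultures, so the spread behind each p-value is that between these samples and may be technical. NSP is commonly read as neural stem and progenitor, and REST is a zinc finger repressor of neuronal genes in cells that are not neurons.

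LPA receptors 1 to 3 and the S1P receptors belong to 1 family, the Edg receptors, while Lpar4 and Lpar6 belong to a separate branch related to the P2Y purinergic receptors. They couple to Gi, Gq and G12/13 proteins in different combinations, and through these to adenylyl cyclase, phospholipase C and small GTPases. In the developing mouse brain Lpar1 was first known as a gene of the ventricular zone, where progenitors divide, and in the mature brain it is known from oligodendrocytes.

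The 250 bases before the annotated transcription start were read for what the members share apart from their signals. RefSeq windows (build GRCm38.p6) were found for 8 of the 9 genes, 10 windows in all, with S1pr1 not among them. They are shown for Lpar4, for Lpar6 as its relative in the P2Y-related branch, and for S1pr5, the receptor with the largest positive difference. Capitals mark CCAAT or its complement ATTGG, and the GC box GGGCGG or its complement CCGCCC. The windows are chrX:106920375-106920624 (plus strand), chr14:73237641-73237890 (plus strand) and chr9:21248444-21248693 (minus strand), each written 5′ to 3′.

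Lpar4: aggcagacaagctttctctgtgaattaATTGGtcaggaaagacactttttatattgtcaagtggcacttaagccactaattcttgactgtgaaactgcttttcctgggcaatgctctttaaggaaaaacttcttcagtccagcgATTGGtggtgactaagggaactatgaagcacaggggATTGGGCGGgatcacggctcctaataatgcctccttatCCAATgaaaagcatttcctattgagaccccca
Lpar6: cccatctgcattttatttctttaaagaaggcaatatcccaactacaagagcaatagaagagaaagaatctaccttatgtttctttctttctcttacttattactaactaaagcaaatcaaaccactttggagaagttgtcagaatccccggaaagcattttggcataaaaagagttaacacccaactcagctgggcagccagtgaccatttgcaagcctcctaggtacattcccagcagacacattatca
S1pr5: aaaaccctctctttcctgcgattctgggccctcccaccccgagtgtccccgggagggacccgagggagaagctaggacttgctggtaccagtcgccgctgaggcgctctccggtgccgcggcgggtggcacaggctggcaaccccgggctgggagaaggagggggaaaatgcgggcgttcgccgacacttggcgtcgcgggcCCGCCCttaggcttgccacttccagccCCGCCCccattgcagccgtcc

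The Lpar4 window held 4 copies of CCAAT, counted on both strands, of which 1 shares bases with its GC box. CCAAT was in 2 of the 10 receptor windows and the GC box in 7, against 33.8% and 32.7% of 32851 promoter windows of the same length, of which 0.84% held CCAAT at least 4 times. The window of Lpar6 held neither motif, and that of S1pr5 held the GC box at 2 places, where 16.7% of all windows hold it at 2 or more. GC content was 43.6% for Lpar4 and 39.2% for Lpar6, both under the median of 52.4% over all windows, and 69.2% for S1pr5. The dinucleotide CpG occurred 3 times in Lpar4, 1 time in Lpar6 and 22 times in S1pr5. The left and right parts of the REST element RE1 were also searched on both strands: AGCACC was in 0 of the 10 windows, against 13.4% of all windows, and GGACAG was in 2 of them, 1 of Lpar1 and that of Lpar3, against 18.7%. A match describes letters in a window and is not a binding site.

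The transcript targeted by the hairpin read lower with REST shRNA: all 4 probe sets of Rest were lower in every REST shRNA array than in any control shRNA array, at 57.3% to 71.5% of control. None of them passed an adjusted p of 0.05 (limma, adjusted p = 0.9998, unadjusted p from 0.00175 to 0.0323). Among all probe sets 3.9% were likewise lower without overlap. Values are log2 signals as deposited, and the brightest reading of 27 bacterial controls that had no target in the samples, 3.24, is used here as a background reference. Of the 17 receptor probe sets 14 had a mean above it. No depth applies to arrays, and the 3 arrays per group limit the precision. Array 2 of the REST shRNA group stood apart for astrocyte and oligodendrocyte markers, and results that touch these are given with and without it.

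In the fit over all 45037 probe sets, 0 receptor probe sets other than those of Lpar4 passed an adjusted p of 0.05 (limma, Benjamini-Hochberg), where 0% of all probe sets did so in either direction. The lowest unadjusted p among these 14 was 0.0582, so 0 of them lay under 0.05 (background 1.54% of probe sets higher and 1.93% lower), and every one of the 14 had an adjusted p that rounds to 1.00. An exact two-sided permutation test of 3 against 3 arrays cannot go below 0.1, a value reached among these 14 by Lpar3 alone. Of the 14 probe sets outside Lpar4, 7 were higher and 7 lower with REST shRNA. Among all probe sets 52.6% were higher and 47.4% lower. Within like-numbered pairs of arrays, 2 of the 14 were higher in all 3 pairs (background 12.2%) and 2 lower (background 11%). The groups did not overlap for 1 of the 14, that of Lpar3, which was lower (background 3.9% of probe sets lower and 4.35% higher).

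**Figure D1:**
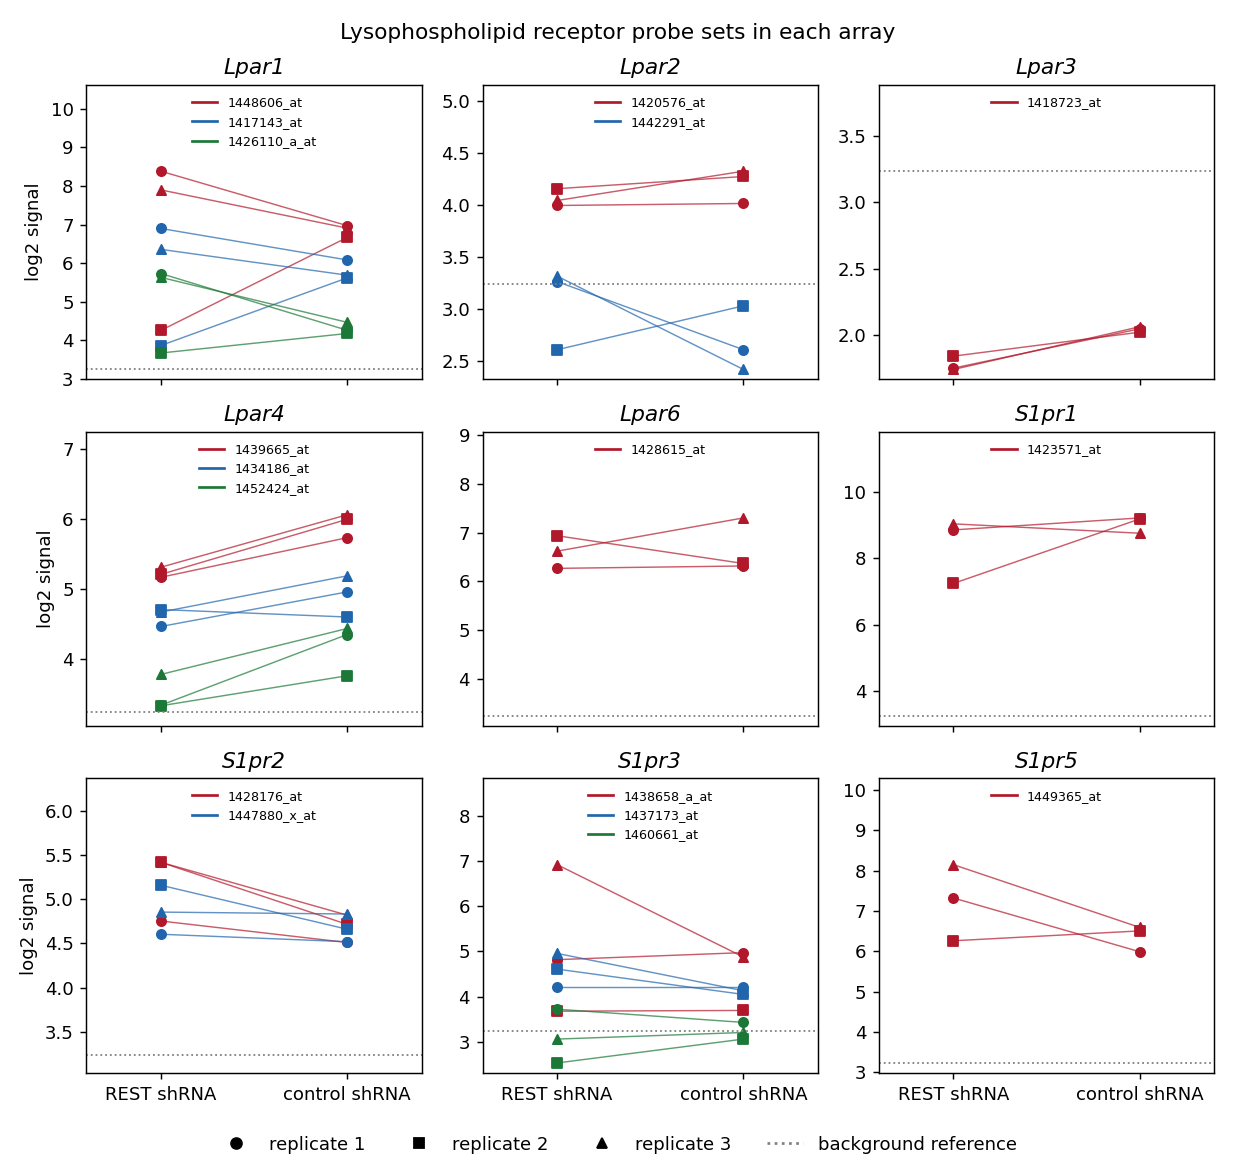
Log2 signal of each receptor probe set (colour) in the REST shRNA arrays (left) and the control shRNA arrays (right), with lines joining arrays of the same replicate number and a dotted line at the background reference of 3.24. The red Lpar4 probe set lies lower in all 3 REST shRNA arrays, while the 3 Lpar1 probe sets fan out in the REST shRNA arrays, with array 2 lowest in each.

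Lpar4 encodes an LPA receptor known in mice for its part in blood vessel formation. Its brightest probe set, 1439665_at, read 5.16, 5.20 and 5.31 in REST shRNA arrays 1, 2 and 3, against 5.73, 5.99 and 6.06 in control shRNA arrays 1, 2 and 3. Every REST shRNA array was below every control array, and the gap between the groups exceeded the range inside each. The means were 5.22 ± 0.07 with REST shRNA and 5.92 ± 0.17 with control shRNA (SD, n = 3 each), a log2 difference of -0.70 ± 0.16 (SE), which places the REST shRNA level at 61.5% of control.

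The other 2 probe sets of Lpar4 were dimmer. Probe set 1452424_at read 3.33, 3.33 and 3.77 with REST shRNA, against 4.34, 3.76 and 4.43 with control shRNA, a difference of -0.70 ± 0.24. It was lower in all 3 pairs of like-numbered arrays, but REST shRNA array 3 lay just above control array 2, and the REST shRNA values were close to the background reference. Probe set 1434186_at read 4.46, 4.70 and 4.66 with REST shRNA, against 4.95, 4.59 and 5.18 with control shRNA, a difference of -0.30 ± 0.20. In pairs 1, 2 and 3 this probe set differed by -0.49, 0.11 and -0.52. The 3 probe sets are readings of 1 gene on the same arrays, with r of 0.635 to 0.877 between them. Leaving out each array, or both arrays of a number, kept the brightest probe set between -0.80 and -0.64, the dimmest between -0.91 and -0.54, and 1434186_at between -0.51 and -0.17.

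Lpar6, the relative of Lpar4, whose human counterpart is known for its part in hair growth, did not share this pattern. It read 6.27, 6.94 and 6.62 in the REST shRNA arrays, against 6.32, 6.37 and 7.30 in the control arrays. The groups overlapped throughout, and control array 3 was the highest. The log2 difference was -0.05 (95% CI -0.80 to 0.69), with -0.05, 0.57 and -0.68 in pairs 1, 2 and 3, so a change of up to about that size in either direction is not excluded by these arrays.

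Lpar1 varied more within the REST shRNA group than any other member. Its brightest probe set, 1448606_at, read 8.38, 4.25 and 7.90 in REST shRNA arrays 1, 2 and 3, against 6.97, 6.66 and 6.91 in control shRNA arrays 1, 2 and 3. Arrays 1 and 3 were above every control array and array 2 far below them, so the means nearly coincided (difference -0.00, 95% CI -2.39 to 2.38), with an SD of 2.26 with REST shRNA and 0.16 with control shRNA (n = 3 each). The pair differences were 1.41, -2.41 and 0.99.

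Probe set 1417143_at of Lpar1 read 6.90, 3.86 and 6.36 with REST shRNA, against 6.08, 5.61 and 5.69 with control shRNA. The third, 1426110_a_at, read 5.73, 3.66 and 5.63 with REST shRNA, against 4.25, 4.17 and 4.46 with control shRNA. All 3 probe sets were lowest in REST shRNA array 2 and highest in REST shRNA array 1. Over all arrays 1417143_at differed by -0.09 (95% CI -1.83 to 1.65) and 1426110_a_at by 0.71 (95% CI -0.55 to 1.98). Without REST shRNA array 2 the differences were 1.29, 0.83 and 1.38 for 1448606_at, 1417143_at and 1426110_a_at. The limma adjusted p was 0.716, 0.801 and 0.716, so none passed the adjusted threshold. Their unadjusted p lay under 0.05, and the share of all probe sets that did so is given below.

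Lpar2 and Lpar3 were dim. Lpar2, an LPA receptor that couples to Gi, Gq and G12/13, read 3.99, 4.16 and 4.04 with REST shRNA, against 4.01, 4.27 and 4.32 with control shRNA, on its brighter probe set 1420576_at. It was lower in all 3 pairs, by little, at a difference of -0.14 (95% CI -0.51 to 0.24), and the groups overlapped. Its second probe set, 1442291_at, with a mean below the background reference, differed in the other direction, by 0.38 (95% CI -0.24 to 0.99). Lpar3, known in mice for embryo implantation in the uterus, read 1.75, 1.84 and 1.74 with REST shRNA, against 2.05, 2.02 and 2.06 with control shRNA. The groups did not overlap, at a difference of -0.27 (95% CI -0.59 to 0.06), but every value lay below the background reference, where array signals carry little information on the transcript.

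S1pr1, the Gi-coupled S1P receptor known from astrocytes, endothelium and lymphocyte traffic, read 8.86, 7.25 and 9.05 with REST shRNA, against 9.22, 9.19 and 8.76 with control shRNA. REST shRNA array 2 was low, and the other 5 arrays lay together. The log2 difference was -0.68 (95% CI -1.79 to 0.44), and -0.11 without REST shRNA array 2.

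S1pr2, which couples to G12/13 among other G proteins, was higher in every pair on both of its probe sets. The brighter, 1428176_at, read 4.75, 5.42 and 5.42 with REST shRNA, against 4.51, 4.72 and 4.82 with control shRNA. REST shRNA array 1 lay inside the control range, so the groups overlapped. The difference was 0.51 (95% CI -0.02 to 1.05) with an unadjusted p of 0.0582 in limma and an adjusted p of 1.00. With the replicate number as a block its unadjusted p was 0.0361 (adjusted p = 0.998), the only one of the 14 under 0.05 in that fit, where 1.87% of all probe sets were higher and 2.42% lower. Probe set 1447880_x_at, of a kind that can match other transcripts, differed by 0.20 (95% CI -0.26 to 0.66), with 0.08, 0.50 and 0.02 in pairs 1, 2 and 3.

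S1pr3, a receptor that couples to Gi, Gq and G12/13, gave different pictures on its 3 probe sets. Probe set 1438658_a_at read 4.82, 3.68 and 6.91 with REST shRNA, against 4.97, 3.69 and 4.87 with control shRNA, so arrays of pairs 1 and 2 were nearly level and REST shRNA array 3 stood 2.04 above its control. Probe set 1437173_at read 4.22, 4.61 and 4.95 with REST shRNA, against 4.22, 4.05 and 4.13 with control shRNA, a difference of 0.46 (95% CI -0.05 to 0.97). Probe set 1460661_at, with a mean below the background reference, differed by -0.13 (95% CI -0.85 to 0.60). REST shRNA array 3 was the highest array on the first 2 of these, and without it the difference of 1438658_a_at was -0.27.

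S1pr5, an S1P receptor known from oligodendrocytes and natural killer cells, had the largest positive difference of the 17 probe sets. It read 7.32, 6.26 and 8.15 in REST shRNA arrays 1, 2 and 3, against 5.99, 6.51 and 6.59 in control shRNA arrays 1, 2 and 3. Arrays 1 and 3 were above all controls, and array 2 lay inside the control range. The difference was 0.88 (95% CI -0.21 to 1.97), 1.33, -0.24 and 1.55 in pairs 1, 2 and 3, and 1.37 without REST shRNA array 2 (limma adjusted p = 0.801). Without REST shRNA array 3 it was 0.43, and leaving out each array, or both arrays of a number, gave 0.43 to 1.44.

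**Figure D2:**
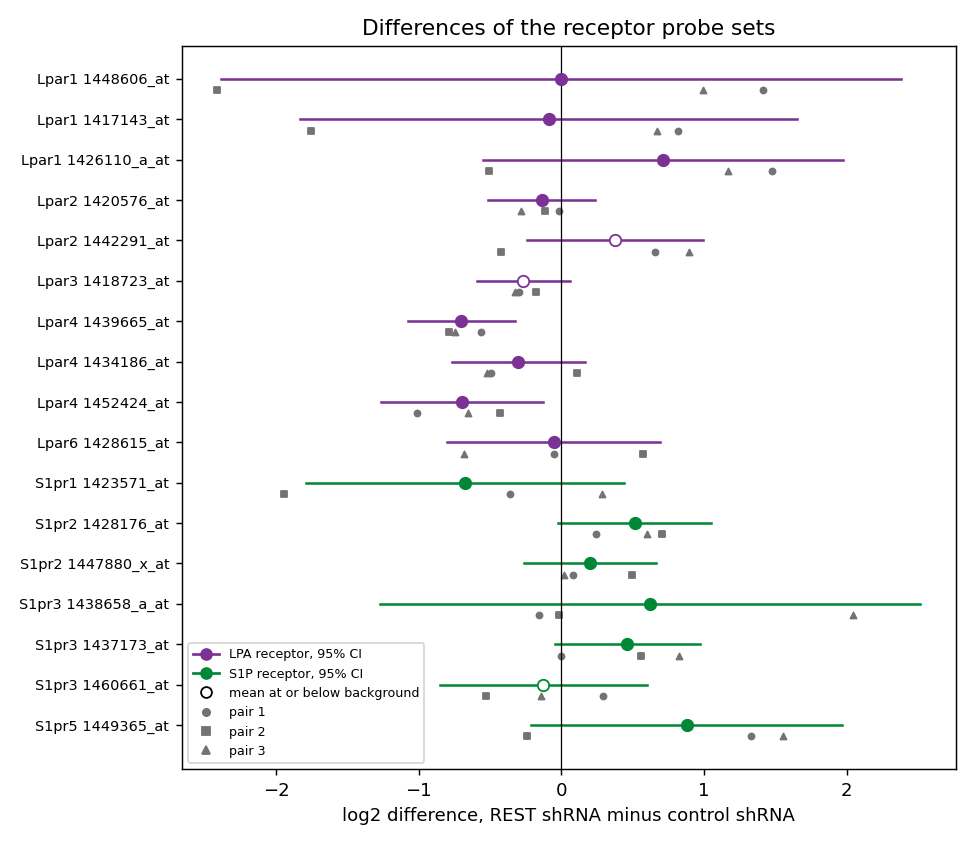
Log2 difference of each receptor probe set, REST shRNA minus control shRNA, with its 95% confidence interval (circles and bars) and the differences of replicate pairs 1 to 3 below it (grey). The interval is widest for 1448606_at of Lpar1, -2.39 to 2.38, and open circles mark the 3 probe sets with a mean below the background reference. The intervals drawn for the Lpar4 probe sets are a description and no test, because the difference of Lpar4 led to the choice of family.

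Of the 14 receptor probe sets outside Lpar4, 5 had an unadjusted p under 0.05 and were higher without REST shRNA array 2, and 0 were lower. They were the 3 of Lpar1, that of S1pr5 and 1442291_at of Lpar2, whose mean is below the background reference. By the same rule 3.18% of all probe sets were higher and 2.99% lower. REST shRNA array 2 was the lowest of its group on each of these 5, so leaving it out raised their differences by construction. The 3 of Lpar1 are readings of 1 gene that correlated at 0.84 to 0.99 over the 6 arrays. Without REST shRNA array 1 there were 2 higher, 1428176_at of S1pr2 and 1437173_at of S1pr3, and 0 lower (background 2.99% higher and 3.04% lower). REST shRNA array 1 was the lowest of its group on both. Without REST shRNA array 3 there were 0 in either direction (background 1.45% higher and 1.56% lower). Leaving out any 1 control array also gave 0 in either direction. Among all 45037 probe sets, dropping control shRNA array 1 left 324 higher and 513 lower by this rule. Dropping array 2 of that group left 450 and 798, and dropping array 3 left 628 and 676. With a background this low, 0 of 14 does not set the receptors apart. No receptor probe set passed the adjusted threshold in these fits. REST shRNA array 2 was the lowest of the 6 arrays for 7 of the 17 receptor probe sets, against 24.2% of all probe sets, and the highest for 2, against 24.5%.

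Some markers of glial cell types were low in REST shRNA array 2, as were some receptors. The 11 measured oligodendrocyte lineage markers, all but Mog above the background reference on average, had a mean log2 signal of 9.25, 8.22 and 9.88 in REST shRNA arrays 1, 2 and 3, against 8.96, 8.91 and 9.33 in control arrays 1, 2 and 3. Their summed linear signal ranged from 10366 to 24640 with REST shRNA and from 15119 to 21318 with control shRNA, with 6 markers higher and 5 lower. Mag, a myelin protein, read 7.31, 4.52 and 8.47 with REST shRNA, against 5.35, 5.55 and 6.34 with control shRNA. Mag stood above all controls in REST shRNA arrays 1 and 3 and below them in array 2. This pattern was held by 3 of the 11 markers (Mag, Mbp and Mog) and not by the other 8. It was also held by 1 marker in each of the astrocyte, neuron, endothelial, microglia, and mural and fibroblast lists. Olig1 and Olig2, 2 other markers of this lineage, were highest of the 6 arrays in REST shRNA array 2, at 11.6 and 10.5. Without REST shRNA array 2 there were 7 oligodendrocyte lineage markers higher and 4 lower.

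All 8 astrocyte markers were lower on average with REST shRNA, and without REST shRNA array 2 there were 4 higher and 4 lower, with a median of -0.03. Their mean log2 signal was 10.2, 8.25 and 10.2 with REST shRNA, against 10.3, 9.89 and 10.1 with control shRNA, and the summed linear signal ranged from 4305 to 13662 with REST shRNA and from 10741 to 12813 with control shRNA. Relative to the control mean, the astrocyte markers were at 0.13 and 0.09 in REST shRNA arrays 1 and 3. Array 2 was at -1.84 for these markers, -1.81 for S1pr1 and -2.60 for Lpar1. In REST shRNA arrays 1 and 3 S1pr1 was at -0.20 and -0.01, but Lpar1 was at 1.54 and 1.05, so its likeness to these markers rests on array 2. In bulk RNA fewer cells of a type and less RNA per cell cannot be told apart, and the part of these cell types in the receptor values was not tested.

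The 12 neuron markers had a median difference of 0.66, with 9 higher, and their mean was above the control mean in each REST shRNA array, by 0.70, 0.51 and 0.99. Summed linear signal was 5168 to 7299 with REST shRNA and 4186 to 5111 with control shRNA. Without REST shRNA array 2 there were 10 neuron markers higher and 2 lower, with a median of 0.88. Radial glia and progenitor markers were all above the background reference, with 10 of 12 lower and a median of -0.27. Endothelial markers were near background: 3 of 10 (Esam, Erg and Kdr) had a mean above the reference, with Cdh5 at 2.34 with REST shRNA and 2.37 with control shRNA, and Pecam1 at 3.04 with REST shRNA and 3.17 with control shRNA. Their summed signal ranged from 95.4 to 107 with REST shRNA and from 96.9 to 100.5 with control shRNA, with 5 markers higher and 5 lower. Markers of microglia were above the reference for 6 of 12 and those of mural cells and fibroblasts for 8 of 12.

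**Figure D3:**
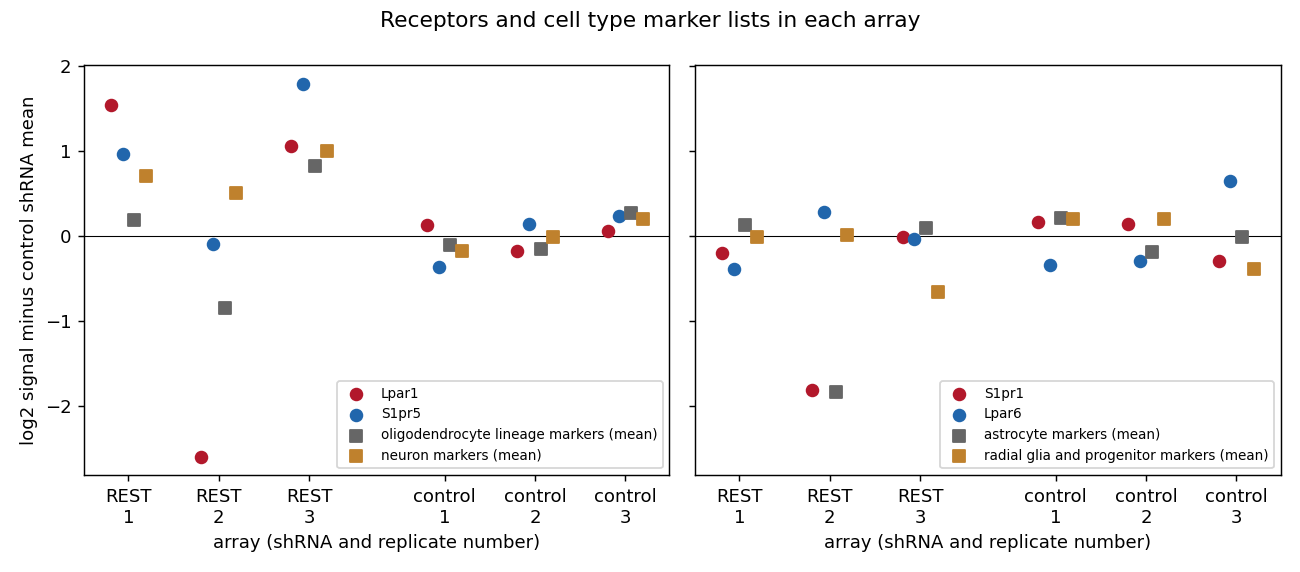
Log2 signal minus the control shRNA mean in each array, for the brightest probe sets of Lpar1, S1pr5, S1pr1 and Lpar6 (circles) and the means of 4 cell type marker lists (squares). In REST shRNA array 2 the astrocyte markers lie at -1.84 and S1pr1 at -1.81, while Lpar6 lies at 0.27.

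For each member above background, the 3 genes with the most similar signal over the 6 arrays were looked up among 12937 genes. With so many genes and 6 arrays that share their processing, values near 1 arise readily, and they are given as a description. S1pr5 was most like Rab6b, a Rab GTPase of neurons (Pearson r = 0.997), Atp2b2, a plasma membrane calcium pump (0.990), and Mllt11 (0.989). Lpar4 was most like Zfp995 (0.980), Fam172a (0.980) and Esyt2, an extended synaptotagmin of contact sites between membranes (0.979). Their differences, which follow from the choice by likeness to Lpar4, were -0.68, -0.37 and -0.43.

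The nearest genes to S1pr2 were Angel1 (0.998), Pcbp3 (0.996), an RNA-binding protein, and Hic2 (0.993). Those nearest Lpar1 were Zfp879, Palm and Scarf1 (0.997, 0.997 and 0.996), those nearest S1pr1 were Epg5, Cdip1 and Mical3 (0.995, 0.994 and 0.991), and those nearest S1pr3 were Pdzk1, Dlx3 and Wdfy2 (0.993, 0.992 and 0.986). For Lpar6 they were Mthfd2l, Pwwp2a and Zfp704 (0.988, 0.987 and 0.982), and for Lpar2 Rlf, Plin5 and Jhy (0.998, 0.980 and 0.975). No receptor was among the nearest 3 of another receptor.

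Genes that make, remove or relay the ligands were counted in 6 lists of 77 measured genes, each gene by its brightest probe set. In the fit over 18193 genes 0 of the 77 passed an adjusted p of 0.05 (limma), as did 0% of all genes in either direction. At an unadjusted p under 0.05 there was 1 gene higher, 1.30% of the 77 (background 1.78%), and 0 lower (background 1.07%). With the replicate number as a block there were 3 higher (background 2.23%) and 3 lower (background 1.42%), and 0 passed the adjusted threshold. The groups did not overlap for 2 of the 77 with REST shRNA higher (background 4.91%) and for 3 with REST shRNA lower (background 2.65%). Over all genes 57.2% had a positive difference and 42.8% a negative one. The median log2 difference of all genes was 0.04.

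In the list of LPA production and breakdown 15 of 16 listed genes were measured, so the list is not complete. Of the 15, 7 were higher and 8 lower, with a median of -0.01. Pla2g4a, a phospholipase A2 that cuts membrane phospholipids, read 5.19, 4.82 and 6.79 with REST shRNA, against 6.32, 5.68 and 7.86 with control shRNA. It was lower in all 3 pairs, as were 8.77% of genes, although the groups overlapped, at a difference of -1.02 ± 0.70 (SE). The pair differences were -1.13, -0.86 and -1.07, and with the replicate block the SE was 0.17, with an unadjusted p of 0.00123 and an adjusted p of 0.784 (limma). Leaving out arrays moved it between -1.61 and -0.40. Plpp5, a lipid phosphatase, differed by 0.26 ± 0.25, with 0.06 to 0.57 when arrays were left out. In the list of S1P production, export and breakdown 6 of 18 were higher and 12 lower, with a median of -0.13, where Asah2, a ceramidase, differed by -0.51 ± 0.25 (unadjusted p = 0.0485 with the block in limma) and Cers2, a ceramide synthase, by 0.34 ± 0.17.

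All 5 phospholipid phosphatase-related membrane proteins, brain proteins related to the enzymes that dephosphorylate LPA, were higher on average, at a list median of 0.36. Plppr4 read 4.26, 2.54 and 4.05 with REST shRNA, against 1.96, 2.49 and 2.94 with control shRNA, a difference of 1.15 ± 0.49, with 0.57 to 1.70 when arrays were left out and an unadjusted p of 0.0346 with the block (limma adjusted p = 1.00). Its control values and REST shRNA array 2 lay below the background reference. Plppr2 differed by 0.45 ± 0.28 and was higher in all 3 pairs, as were 13.6% of genes. None of the 5 passed the threshold.

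Among the G protein subunits, 6 of 11 were higher, with a median of 0.09, and Gna11, a Gq-class alpha subunit that activates phospholipase C, read 9.12, 9.63 and 9.38 with REST shRNA, against 8.95, 9.02 and 8.64 with control shRNA. The groups did not overlap, at a difference of 0.51 ± 0.19 with an unadjusted p of 0.0368 and an adjusted p of 1.00 in limma. Gnao1, the alpha subunit abundant in neurons, differed by 0.42 ± 0.28, with 0.14 to 0.59 when arrays were left out. SRF and YAP response genes split 12 higher and 10 lower, with a median of 0.08, Amotl2 at -0.53 ± 0.30 and Myl9, a myosin light chain, at -0.39 ± 0.29. The number 3 arrays of both groups stood apart on this list. Its summed linear signal was 4589, 7978 and 17691 in REST shRNA arrays 1, 2 and 3, against 5666, 5923 and 18386 in control arrays 1, 2 and 3. Fos read 7.19, 7.03 and 12.1 with REST shRNA, against 7.24, 6.75 and 12.2 with control shRNA. The reason was not tested. The 6 measured of the other lysophospholipid receptors had a median of 0.04, with Gpr34 at -0.33 ± 0.16, below background, and Gpr4 at -0.32 ± 0.17.

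**Figure D4:**
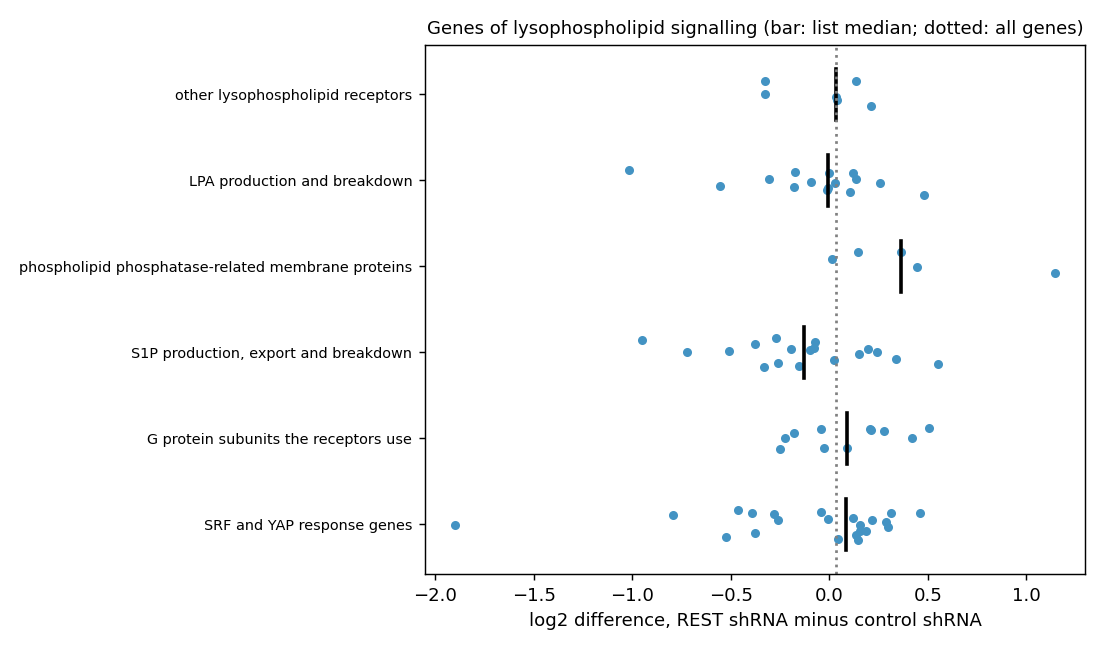
Log2 difference, REST shRNA minus control shRNA, of each measured gene (points, with vertical jitter) in 6 lists of lysophospholipid signalling, with list medians (bars) and the median of all genes at 0.04 (dotted line). Medians run from -0.13 for S1P production, export and breakdown to 0.36 for the phospholipid phosphatase-related proteins, and no gene passed the adjusted threshold.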

How the data were processed

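Total RNA was extracted with Trizol and amplified cDNA was labelled with biotin, per the labels' protocols. The values used are the log2 signals per probe set that the authors deposited in the series table, with a scale read from their range of 1.00 to 14.2. How background was corrected, probes summarised and arrays normalized is not given in the sources used here. All arrays share nearly one distribution (sorted values deviate from their mean by 0.0224 on average), so no further scaling was applied, and differences are relative to the other transcripts of an array. Pearson correlations between arrays ran from 0.955 to 0.993, and 0 other columns of values were present.

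Names came from the platform annotation of the array, and 64 array controls were left out. Of 45037 probe sets 34945 had 1 gene, and 34754 of these found their gene number in a RefSeq table (GRCm38.p6, names only), with 0 symbols changed. Of 158 list entries 154 were matched, and the other 4 were not analysed here. A further pathway list is not reported here. The test used limma 3.58.1 (R 4.3.3; lmFit, eBayes) with the group as the sole term, over all probe sets for the receptors and over genes by brightest probe set for the lists, with Benjamini-Hochberg adjustment and two-sided tests. It was also run on simulated data drawn independently for each array. Those data hold no outlying array and no pairing, so they cannot show how the test behaves with these features.

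Named were all members, Rest, the 2 genes with the smallest p in each pathway list where none was called, and the 3 nearest genes of each member, with predicted gene models passed over. Cell type markers were picked for naming after their values were seen. The members, lists, rule and tests were chosen with earlier results of these data known.

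Groups share replicate numbers from the titles. Like-numbered arrays deviated together from their group means, with r of 0.117, 0.282 and 0.402 for numbers 1, 2 and 3. Each exceeds 0.1, so like-numbered arrays were treated as pairs in the pair differences and the replicate block. Control array 1 was, however, closer to REST shRNA array 2 (r = 0.231). The pairing rests on the titles and this check. The main test left the pairing out. Alternatives were the replicate block, scalings, a filter on dim probe sets, variance models, array weights, other units of testing, and leaving out arrays.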

Additional observations from a re-analysis of the deposited data

How the results depend on the processing

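The number of receptor probe sets past an adjusted p of 0.05 was 0 as reported, 0 with the replicate block and 0 under all other alternatives run, and the same held for the pathway genes and for all probe sets and all genes. With the replicate block the difference of S1pr2 (1428176_at) had an unadjusted p of 0.0361 and that of S1pr5 of 0.0555, and the block changed no call. Array weights in limma gave an unadjusted p of 0.0110 for S1pr5 and 0.0168 for 1426110_a_at of Lpar1 (adjusted p = 0.869 for both). The mean-variance trend in limma gave 0.0252 for Lpar3, which lies below the background reference. Over all probe sets 706 were higher and 773 lower at an unadjusted p under 0.05 with that trend. The sign of a difference turned for 5 probe sets, among them 1438658_a_at of S1pr3, which read 0.62 with all arrays. With array weights, 1448606_at and 1417143_at of Lpar1 were at 0.70 and 0.35, Lpar6 at 0.027 and 1460661_at of S1pr3 at 0.040, and with each array centred on its median 1448606_at was at 0.036. Over the settings that leave out 1 array or both arrays of a number, 1448606_at ran from -0.77 to 1.29, 1417143_at from -0.69 to 0.83, Lpar6 from -0.37 to 0.27, 1460661_at from -0.44 to 0.16 and 1438658_a_at of S1pr3 from -0.27 to 1.35. The first 2 were highest without REST shRNA array 2. The brightest probe sets of S1pr1, S1pr2, S1pr5 and Lpar2 kept their sign in every setting. Those of Lpar4 and Lpar3 did so as well, but their groups do not overlap, so leaving out arrays could not turn the sign. The difference of Lpar4 had also led to the choice of family. Unadjusted counts over all probe sets moved with the arrays used: 692 higher and 868 lower as reported, 324 and 513 when control shRNA array 1 was left out, and 1434 and 1346 when REST shRNA array 2 was. With array weights they were 1318 and 1243. Signals near the background reference of 3.24 understate differences, which touches Lpar3, Lpar2 and the dimmest probe sets of Lpar4 and S1pr3.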
